A study of Mus musculus with 18 samples.

Results

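The 10 genes described here code for enzymes that remove methyl groups from histones or DNA with the help of molecular oxygen. They were chosen by name and by family, with earlier results of these data known, and are *Kdm2b*, *Kdm3a*, *Kdm4a*, *Kdm4b*, *Kdm4c*, *Kdm5b*, *Kdm6b*, *Tet1*, *Tet2* and *Tet3*. They are 10 of the 78239 genes in the count tables, and all 10 passed the filter on low counts in both experiments. Retinas came from mice that received a subretinal injection of AAV::*nsHif1a* or AAV::eGFP between postnatal days 29 and 32 and were collected 3 weeks later, with 5 libraries per group. The labels give these mice as C57BL/6J, whereas the study's methods name 129S6. *nsHif1a* codes for a Myc-tagged mouse HIF1A with exchanged amino acids that stays stable and active at normal oxygen. In the vectors, a rod-specific mouse promoter limits the transgene to rods, and the injection reaches only a part of the retina. Each library was made from retinal tissue as a whole and therefore also holds RNA of rods without vector and of every other retinal cell type. The second experiment used 661W cells, a photoreceptor-like line derived from a mouse retinoblastoma, grown at ambient oxygen and transfected with plasmids in which the CMV promoter drives either *nsHif1a* or eGFP. These cells were harvested after 20 h, with 4 libraries per group. The labels do not say whether the cell libraries come from separate cultures, so *p*-values measure the spread between these libraries, which may be technical.

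Both enzyme families are dioxygenases. They need iron, oxygen and the metabolite 2-oxoglutarate, and they couple the oxidation of the methyl group to the release of succinate. The JmjC proteins (KDM2 to KDM6) act on methylated lysines of histones, and each subfamily prefers certain lysines, whereas the TET proteins oxidise 5-methylcytosine in DNA. Some of the genes, *Kdm3a* among them, are known targets of HIF transcription factors in hypoxic cells, and oxygen is also a substrate of the enzymes they encode. The comparisons below ask what happened to these transcripts when HIF1A was active while oxygen was normal.

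Library totals ranged from 12898220 to 16167522 counts for AAV::eGFP, from 13723692 to 15813892 for AAV::*nsHif1a*, from 13424326 to 17051276 for cells with eGFP and from 14281793 to 17809585 for cells with *nsHif1a*. *Hif1a* had 156.6 ± 6.79 CPM (SD, n = 4; counts scaled to the size of the library) in eGFP cells and 1561 ± 384 CPM in *nsHif1a* cells. In the retina it had 668 ± 26.1 CPM with AAV::eGFP and 687 ± 31.6 CPM with AAV::*nsHif1a* (SD, n = 5), a difference that did not pass the test (adjusted *p* = 0.50). For HIF1A protein, the study reported a marked increase by Western blot of whole retinas with AAV::*nsHif1a* at the same time after injection. Among 8 well known HIF targets, 8 rose in the retina and 7 in the cells, all but *Egln3*. With the replicate number as a block 4 of the 8 were called in the cells, since *Egln1* (adjusted *p* = 0.086), *Ankrd37* (0.080) and *P4ha1* (0.054) were lost, and with the rod marker mean as a covariate *Pdk1*, *Slc2a1* and *Ankrd37* were lost in the retina (0.10, 0.073 and 0.082). Retinal libraries differed in *Xist*, which reached 19492 to 28595 counts in controls 1 and 2 and in each of the 5 AAV::*nsHif1a* libraries but only 1 to 3 counts in controls 3, 4 and 5. The labels give no sex. The Y-linked *Kdm5d* and *Uty* had 0 CPM in every AAV::*nsHif1a* library, though not in every control. By these transcripts all 5 AAV::*nsHif1a* libraries read as female, and by *Xist* controls 3, 4 and 5 read as male. Sex was therefore not balanced between the groups. With the *Xist* class as a covariate 422 genes were called in the retina in place of 1091. As every AAV::*nsHif1a* library held *Xist*, the effect in such a fit rests on controls 1 and 2. Rod markers as a sum held 49482 to 54650 CPM with AAV::eGFP and 38757 to 51571 CPM with AAV::*nsHif1a*, and 4 of 10 fell in limma, while edgeR's quasi-likelihood test called 0 and DESeq2 6 of them, and 8 had an unadjusted *p* under 0.05. The summed microglia markers ranged from 29 to 172 CPM and from 55.9 to 166 CPM in these groups, with 0 of 10 called in limma, edgeR and DESeq2 and 4 at an unadjusted *p* under 0.05. The summed γ-crystallins of the lens ranged from 634 to 2817 CPM and from 920.0 to 18956 CPM. All 6 were higher with AAV::*nsHif1a*, and all 6 had an unadjusted *p* under 0.05. Of these, limma called 0, edgeR 2 and DESeq2 5. In 661W cells only 3 of 10 rod markers and 2 of 7 cone markers passed the filter on low counts, and the sum of the rod markers was 13.4 to 18.5 CPM.

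Promoter sequence was examined for the letters ACGTG and GCGTG on both strands, which are the core of the hypoxia response element to which HIF binds. The RefSeq table of mouse promoters (build GRCm38.p6, 250 bases before to 50 bases after a transcription start) held 8 of the 10 members, all but *Kdm4b* and *Kdm6b*. Of these 8, 5 had a core in at least 1 window (*Kdm2b*, *Kdm3a*, *Kdm4c*, *Kdm5b* and *Tet2*), against 46.7% of all 27025 genes in the table. *Kdm2b*, *Kdm3a* and *Kdm4c* had several windows each, which gives them more chances of a match, and the share was not adjusted for this. The windows of 3 genes are printed, each 5′ to 3′ in the direction of transcription with the cores in capitals, because they belong to a member that rose in both experiments (*Kdm3a*, minus strand, chr6:71632868-71633167), to one that rose in the retina (*Kdm5b*, plus strand, chr1:134559928-134560227) and, for the single window with the most matches, to one that passed the test in neither experiment (*Kdm4c*, plus strand, chr4:74251629-74251928).
Kdm3a: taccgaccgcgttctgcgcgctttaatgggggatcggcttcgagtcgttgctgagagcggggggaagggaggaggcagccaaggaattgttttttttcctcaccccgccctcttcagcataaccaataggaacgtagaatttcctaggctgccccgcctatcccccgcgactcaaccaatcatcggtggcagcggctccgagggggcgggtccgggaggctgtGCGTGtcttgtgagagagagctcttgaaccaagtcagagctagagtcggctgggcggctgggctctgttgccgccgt
Kdm5b: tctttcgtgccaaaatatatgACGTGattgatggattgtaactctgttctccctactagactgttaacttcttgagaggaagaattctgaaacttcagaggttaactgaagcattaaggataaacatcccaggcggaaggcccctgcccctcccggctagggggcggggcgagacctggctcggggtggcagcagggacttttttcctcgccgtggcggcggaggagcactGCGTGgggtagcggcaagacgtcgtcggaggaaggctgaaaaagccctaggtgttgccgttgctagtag
Kdm4c: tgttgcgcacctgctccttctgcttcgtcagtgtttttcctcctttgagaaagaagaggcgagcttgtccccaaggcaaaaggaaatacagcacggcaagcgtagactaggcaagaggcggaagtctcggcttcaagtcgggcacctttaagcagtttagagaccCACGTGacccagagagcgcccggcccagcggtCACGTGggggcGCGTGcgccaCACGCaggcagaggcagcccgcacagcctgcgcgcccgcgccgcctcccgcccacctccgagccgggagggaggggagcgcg
The printed *Kdm3a* window held 1 core, GCGTG at position -27 from the start, and the other windows of *Kdm3a* and *Kdm4c* in the table held none. The *Kdm5b* window held ACGTG at -229 and GCGTG at -19. In the *Kdm4c* window 6 matches were found on the 2 strands, 4 of them from 2 copies of the palindrome CACGTG, which reads as ACGTG on either strand and is also the sequence of an E-box. CACGC in capitals is GCGTG on the opposite strand. Of the 32851 windows in the table, 43.8% held ACGTG or GCGTG. These matches describe the letters of the windows, and no binding was measured.

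In the retina, 4 of the 10 members rose with AAV::*nsHif1a* (*Kdm3a*, *Kdm4b*, *Kdm5b* and *Kdm6b*) and 0 fell in limma, edgeR and DESeq2. Of all 18859 genes tested, 3.31% rose and 2.47% fell. The 4 increases lay between 15.9% and 28.9%. None of them passed the study's second threshold, a log2 fold change (log2FC) above 0.5, which 1.08% of all genes passed together with the adjusted *p*. The same 4 members were the ones whose lowest library with AAV::*nsHif1a* lay above the highest with AAV::eGFP, which was so for 3.25% of all genes. The median log2FC of the 10 members was 0.10, beside -0.0021 over all genes. As these are bulk samples, more cells with a transcript and more of it per cell cannot be told apart.

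The 4 members *Kdm3a*, *Kdm4a*, *Kdm4b* and *Kdm4c* act on lysine 9 of histone H3, a mark of silent chromatin, and the KDM4 enzymes also act on lysine 36. *Kdm3a* (ENSMUSG00000053470.15) lies on the minus strand of chromosome 6 of GRCm39 from 71565956 to 71610472. It had 77.6, 87.8, 92.6, 89.9 and 92.8 CPM in AAV::eGFP libraries 1 to 5 and 93.6, 112, 108, 107 and 115 CPM in AAV::*nsHif1a* libraries 1 to 5. The lowest library with AAV::*nsHif1a* was just above the highest control, and the log2FC was 0.29 (standard error (SE) 0.06, adjusted *p* = 0.018). Without AAV::*nsHif1a* library 2 it was 0.27 with an adjusted *p* of 0.054. *Kdm4b* (ENSMUSG00000024201.14, plus strand of chromosome 17, 56632913 to 56714338) had 97.7, 97.4, 91.3, 95.7 and 99.4 CPM in the controls and 123, 124, 114, 113 and 124 CPM with AAV::*nsHif1a*. The 2 groups were separated by a gap wider than the spread of the controls, and the log2FC was 0.30 (SE 0.04, adjusted *p* = 0.0017), the smallest adjusted *p* of the 10 members. *Kdm4a* (ENSMUSG00000033326.17, minus strand of chromosome 4, 117994154 to 118037251) had 91.0 ± 5.35 CPM with AAV::eGFP and 85.6 ± 2.70 CPM with AAV::*nsHif1a* (SD, n = 5), with a 95% interval of the log2FC from -0.18 to 0.02. *Kdm4c* (ENSMUSG00000028397.15, plus strand of the same chromosome, 74160734 to 74324757) had 158.9 ± 7.75 and 160.5 ± 5.23 CPM, with an interval from -0.07 to 0.10. The libraries of both groups overlapped for *Kdm4a* and *Kdm4c*.

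*Kdm5b*, *Kdm2b* and *Kdm6b* act on other lysines. KDM5B removes methyl groups from lysine 4 of histone H3, a mark of active promoters. *Kdm5b* (ENSMUSG00000042207.19, plus strand of chromosome 1, 134487875 to 134563030) had 196.7, 193.9, 205, 219.6 and 208 CPM in AAV::eGFP libraries 1 to 5 and 235, 246, 236, 225 and 242 CPM with AAV::*nsHif1a*. Each AAV::*nsHif1a* library lay above each control, and the log2FC was 0.21 (SE 0.04, adjusted *p* = 0.010). KDM6B removes methyl groups from lysine 27 of histone H3, the mark set by the Polycomb enzyme EZH2. *Kdm6b* (ENSMUSG00000018476.8, minus strand of chromosome 11, 69289334 to 69304501) had 97.6, 99.9, 92.9, 112 and 104.5 CPM in the controls and 129, 142, 122, 120.1 and 146 CPM with AAV::*nsHif1a*. Its log2FC of 0.37 (SE 0.06, adjusted *p* = 0.0063) was the largest of the 10 members in the retina. Its exons overlap those of *Kdm6bos* on the opposite strand over 286 bases, and the authors' counting used the strand. KDM2B acts on lysine 36 of histone H3 and carries a CXXC domain that brings the Polycomb complex PRC1.1 to CpG islands. *Kdm2b* (ENSMUSG00000029475.19, minus strand of chromosome 5, 123008720 to 123127886) had 26.1 ± 1.38 CPM with AAV::eGFP and 26.1 ± 0.679 CPM with AAV::*nsHif1a* (SD, n = 5), with an interval of the log2FC from -0.12 to 0.10. It shares 124 exonic bases with *Gm44574* on the same strand.

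The 3 TET transcripts did not pass the test in the retina. *Tet1* (ENSMUSG00000047146.18, minus strand of chromosome 10, 62640349 to 62744775) had 26.98, 32.5, 36.3, 33.8 and 36.1 CPM in the controls and 35.2, 42.5, 35.4, 34.5 and 36.6 CPM with AAV::*nsHif1a*. Controls 3 and 5 lay within the range of the other group, and the log2FC was 0.18 (SE 0.09, adjusted *p* = 0.27). *Tet2* (ENSMUSG00000040943.14, minus strand of chromosome 3, 133169436 to 133250900) had 71.1 ± 4.16 and 68.9 ± 3.15 CPM (SD, n = 5), with an interval of the log2FC from -0.17 to 0.05. *Tet3* (ENSMUSG00000034832.16, minus strand of chromosome 6, 83339355 to 83436066, with 1512 exonic bases opposite *Bola3*) had 189.0, 209.7, 243, 263 and 243 CPM in AAV::eGFP libraries 1 to 5 and 216.5, 214, 196.6, 197.2 and 222 CPM with AAV::*nsHif1a*. AAV::eGFP libraries 1 and 2, which held *Xist*, were the 2 lowest controls of *Tet1*, *Tet2* and *Tet3*, and the 3 controls without *Xist* had more *Tet3* than every AAV::*nsHif1a* library. The log2FC of *Tet3* was -0.14 (SE 0.08, adjusted *p* = 0.34), and without AAV::eGFP library 1 it was -0.22 (adjusted *p* = 0.0501). With the *Xist* class of the libraries as a covariate the log2FC was 0.33 for *Tet1* (adjusted *p* = 0.10), 0.02 for *Tet2* (0.87) and 0.06 for *Tet3* (0.64). Without AAV::eGFP library 1 or AAV::*nsHif1a* library 2 the log2FC of *Tet1* was 0.10 or 0.09.

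**Figure D1:**
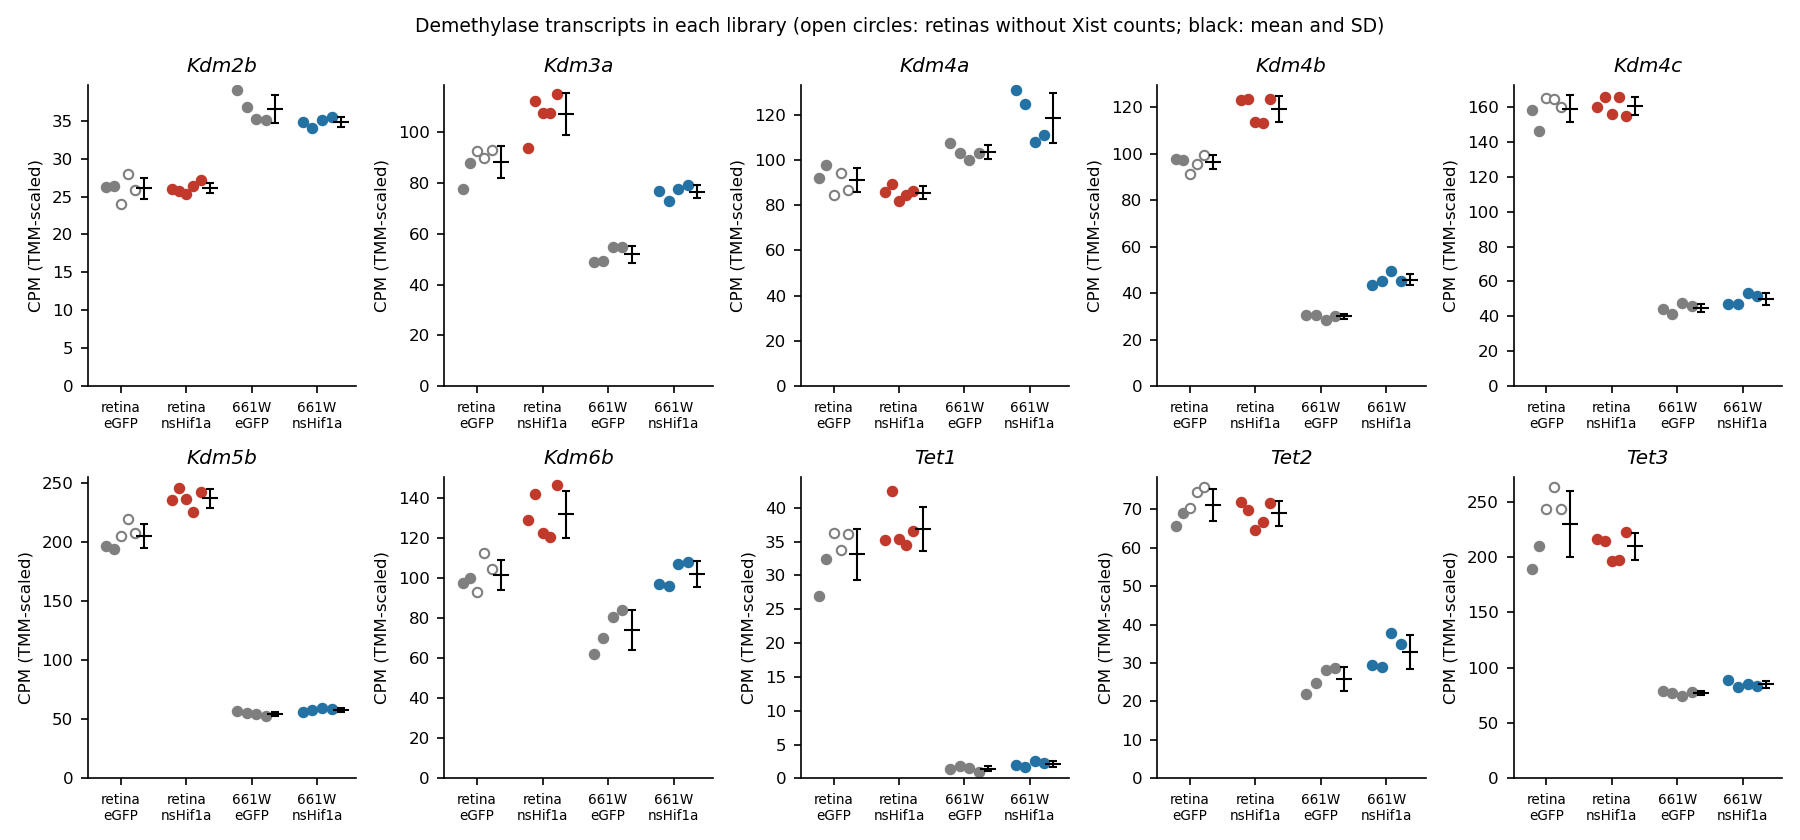
Level of each of the 10 members in every library, in TMM-scaled CPM on a linear axis from 0, for retinas with AAV::eGFP or AAV::*nsHif1a* (5 libraries each) and 661W cells with eGFP or *nsHif1a* (4 each). Circles are libraries (open for retinas without *Xist* counts) and black marks are the mean with the SD. In the retina *Kdm3a*, *Kdm4b*, *Kdm5b* and *Kdm6b* have no overlap between the 2 groups.

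The 4 retinal calls were also made by edgeR, by DESeq2, without sample weights, with other size factors and with either other filter. With the *Xist* class as a covariate the same 4 members were called, with log2FC values of 0.38 for *Kdm3a*, 0.29 for *Kdm4b*, 0.28 for *Kdm5b* and 0.41 for *Kdm6b*. The effect in this fit rests on controls 1 and 2 against the AAV::*nsHif1a* libraries, so it is not a check apart from the next one. Among the libraries with *Xist* alone (2 against 5), *Kdm3a* had a log2FC of 0.38 with an adjusted *p* of 0.053, and the other 3 were called. The same 4 were called with the γ-crystallin mean or the microglia marker mean as a covariate. With the mean of the 10 rod markers as a covariate, a fit chosen after seeing the data, limma called 0 of the 10 members, edgeR called 0, and 4 had an unadjusted *p* under 0.05. The log2FC values were then 0.21 for *Kdm3a* (adjusted *p* = 0.26), 0.27 for *Kdm4b* (0.060), 0.23 for *Kdm5b* (0.10) and 0.29 for *Kdm6b* (0.15). In that fit 115 of all genes were called in place of 1091. The mean log2 CPM of the rod markers was 11.20 to 11.41 in the controls and 10.92 to 11.29 in the AAV::*nsHif1a* libraries, so it moved with the group, and its part in these results was not tested.

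In the 661W cells, 3 of the 10 members rose with *nsHif1a* (*Kdm3a*, *Kdm4b* and *Kdm6b*) and 0 fell in limma, edgeR and DESeq2. Of all 15962 genes tested, 2.06% rose and 0.426% fell. *Kdm3a* and *Kdm4b* also passed the log2FC threshold of 0.5, as did 1.21% of all genes. The groups did not overlap and were higher with *nsHif1a* for 6 of the 10 members, against 7.51% of all genes. The median log2FC of the members was 0.27, beside -0.0013 over all genes. At an unadjusted *p* under 0.05 there were 8 members, all but *Kdm2b* and *Kdm5b*, beside 3304 of the 15962 genes. With the replicate number as a block, which pairs the libraries of these cells, the same 3 members were called, while the number of all genes called fell from 397 to 124.

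*Kdm3a* had 49.1, 49.1, 54.7 and 54.7 CPM in eGFP libraries 1 to 4 and 76.7, 73.0, 77.5 and 79.3 CPM in *nsHif1a* libraries 1 to 4. The highest control was well below the lowest *nsHif1a* library, and the log2FC was 0.56 (SE 0.06, adjusted *p* = 0.0016), a 1.47-fold increase. *Kdm4b* had 30.6, 30.7, 28.5 and 30.3 CPM with eGFP and 43.5, 45.3, 49.5 and 45.1 CPM with *nsHif1a*. Its log2FC of 0.61 (SE 0.06, adjusted *p* = 8.5e-04), or 1.52-fold, was the largest of the 10 members in the cells. *Kdm6b* had 62.2, 69.7, 80.4 and 84.2 CPM with eGFP and 96.9, 95.8, 106.7 and 108 CPM with *nsHif1a*. Controls 1 and 2 were lower than controls 3 and 4, and the log2FC was 0.46 (SE 0.10) with an adjusted *p* of 0.0499, close to the threshold. The adjusted *p* was 0.0501 with other size factors, 0.070 without eGFP library 1, 0.12 without eGFP library 2 and 0.024 with the replicate block.

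For 7 members the change in the cells did not pass the test. *Kdm4a* had 107.7, 103, 100.1 and 103 CPM with eGFP and 131, 125, 107.8 and 111 CPM with *nsHif1a*, so that the increase was larger in libraries 1 and 2 than in 3 and 4. Its log2FC was 0.20 (SE 0.06, adjusted *p* = 0.11). Without *nsHif1a* library 3 or library 4 *Kdm4a* was called, with a log2FC of 0.29 in each case. *Tet2* had 22.04, 24.8, 28.2 and 28.8 CPM with eGFP and 29.5, 28.9, 38.0 and 35.1 CPM with *nsHif1a*. Its groups were just apart and its log2FC was 0.33 (SE 0.11, adjusted *p* = 0.15). *Tet2* was called without *nsHif1a* library 1 or library 2, with a log2FC of 0.48 in each case. *Tet3* had 77.2 ± 1.94 CPM with eGFP and 84.8 ± 2.82 CPM with *nsHif1a* (SD, n = 4), a log2FC of 0.14 (adjusted *p* = 0.12), and was called without *nsHif1a* library 3 or library 4 (log2FC 0.14, adjusted *p* = 0.036 and 0.037). *Kdm4a*, *Tet2* and *Tet3* were the 3 members beside the called ones with no overlap between the groups. *Kdm4c* had 44.8 ± 2.52 and 49.9 ± 3.22 CPM, with an interval of the log2FC from 0.01 to 0.29 (adjusted *p* = 0.22). *Kdm5b* had 54.8 ± 1.73 and 57.9 ± 1.43 CPM, with an interval from -0.02 to 0.18. *Kdm2b* had 36.5 ± 1.86 and 34.9 ± 0.648 CPM, with an interval from -0.19 to 0.06. *Tet1* was near the limit of these libraries, with 24, 27, 27 and 13 counts with eGFP and 35, 24, 45 and 37 counts with *nsHif1a*, and its interval ran from 0.02 to 1.06.

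The cell libraries fall into 2 sets, replicates 1 and 2 and replicates 3 and 4. The labels do not name these sets, which show in how these same libraries deviate together. A fit with the sets therefore takes out spread that was seen in the data tested. The effect was estimated within each set, 2 libraries against 2, in 1 model. *Kdm3a* had a log2FC of 0.61 in replicates 1 and 2 and of 0.52 in replicates 3 and 4. *Kdm4b* had 0.53 and 0.69, and *Kdm6b* had 0.55 and 0.39. All 3 were called within each set. *Tet2* was also called within each set, with a log2FC of 0.32 and 0.36, whereas *Kdm4a* (0.28 and 0.11) and *Tet3* (0.14 and 0.14) were called within replicates 1 and 2. Of all 15962 genes, 5773 were called within replicates 1 and 2 and 1027 within replicates 3 and 4. The difference between the sets did not pass the test for any member, and came nearest for *Kdm4a* (-0.17, SE 0.06, adjusted *p* = 0.052). In that test 3132 of all genes were called. With the set as a covariate 7 members were called, the 3 above with *Kdm4a*, *Kdm4c*, *Tet2* and *Tet3*, and so were 2101 of all 15962 genes, in place of 397.

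**Figure D2:**
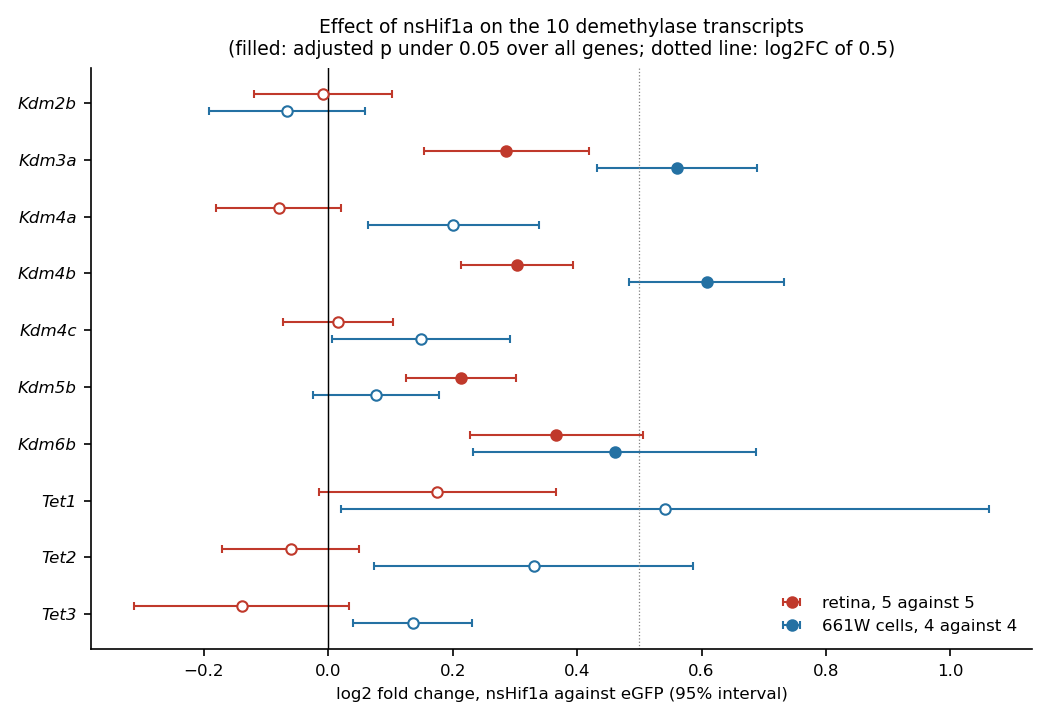
Log2 fold change of *nsHif1a* against eGFP for the 10 members with its 95% interval, in the retina (red, 5 against 5 libraries) and in 661W cells (blue, 4 against 4). Filled points have an adjusted *p* under 0.05 over all genes tested, and the dotted line marks the study's fold change threshold of 0.5, which *Kdm3a* and *Kdm4b* passed in the cells.

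Whether an effect differed between retina and cells was tested with an interaction term over all 18 libraries, in which 2.33% of 20999 genes were called. Tissue and cell line differ in much besides cell type (promoter, route, time and the share of cells with the transgene), and these cannot be told apart here. Of the 10 members, *Kdm4b* was called, with an effect smaller in the retina by a log2 difference of -0.31 (SE 0.07, 95% interval -0.46 to -0.17, adjusted *p* = 0.026). This call was lost with the replicate block (adjusted *p* = 0.074), with the *Xist* class as a covariate (0.051) and without a filter on low counts (0.0503), with log2 differences of -0.30, -0.32 and -0.33. *Tet2* had a larger difference of -0.44 (interval -0.68 to -0.19), which did not pass after adjustment (adjusted *p* = 0.055). It passed in 5 of the 18 fits that left out 1 library (eGFP cells 3 or 4, *nsHif1a* cells 1 or 2, AAV::eGFP 1), with differences from -0.47 to -0.55. *Kdm3a* (-0.29, interval -0.48 to -0.10, adjusted *p* = 0.098) and *Kdm4a* (-0.25, interval -0.41 to -0.09, adjusted *p* = 0.087) came next. *Kdm3a* passed without *nsHif1a* cells 2 (-0.32) or AAV::eGFP 1 (-0.33), *Kdm4a* without *nsHif1a* cells 3 or 4 (-0.36 each) and *Tet3* without AAV::eGFP 1 (-0.35, against -0.27 with it). *Kdm6b* had similar log2FC values in both experiments, but the interval of its difference, -0.37 to 0.13, leaves room for a difference of either sign. *Kdm5b*, called in the retina alone, had a difference of 0.13 with an interval from -0.0040 to 0.27 (adjusted *p* = 0.32), so its effects were not shown to differ.

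The members were also compared in the controls alone. Of the 10, 8 had a higher level in AAV::eGFP retinas than in eGFP cells, *Kdm2b* had a lower one, and *Kdm4a* did not pass the test. Such differences are common between a tissue and a cell line, and 50.9% of all genes were higher in the retina and 40.9% higher in the cells. *Tet1* had the widest log2 difference, 4.61 (SE 0.22), from 34.2 CPM in the retina to 1.38 CPM in the cells. *Kdm5b* (2.01), *Kdm4c* (1.94), *Kdm4b* (1.80), *Tet3* (1.68) and *Tet2* (1.59) followed, and *Kdm3a* (0.88) and *Kdm6b* (0.59) differed less. *Kdm2b* had a log2 difference of -0.38 (SE 0.05) and *Kdm4a* of -0.08 (95% interval -0.19 to 0.02). For *Kdm4b*, the level in *nsHif1a* cells therefore remained under that in control retinas after the increase. With library sizes scaled over all 18 libraries it had 4.74 ± 0.273 CPM per kilobase of exon (SD, n = 4) in *nsHif1a* cells. In control retinas it had 10.7 ± 0.345 (SD, n = 5).

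Levels of different genes were compared per kilobase of exon, with library sizes scaled over all 18 libraries. In AAV::eGFP retinas *Kdm5b* was highest with 22.9 ± 1.15 CPM per kb (SD, n = 5), followed by *Tet3* (20.2 ± 2.62), *Kdm4a* (18.4 ± 1.05) and *Kdm6b* (15.7 ± 1.14), each of which overlapped its neighbour in this order. Below them came *Kdm4c* (13.7), then *Kdm4b* (10.7) and *Kdm3a* (10.3), which overlapped, and then *Tet2* (7.28), *Kdm2b* (4.41) and *Tet1* (2.38 CPM per kb). In eGFP cells *Kdm4a* was highest with 19.4 ± 0.674 CPM per kb (SD, n = 4), followed by *Kdm6b* (10.6 ± 1.36). *Tet3* (6.29), *Kdm2b* (5.71), *Kdm5b* (5.68) and *Kdm3a* (5.61) formed a group in which neighbours overlapped. *Kdm4c* (3.58), *Kdm4b* (3.09), *Tet2* (2.46) and *Tet1* (0.0958 CPM per kb) were lower and did not overlap. With *nsHif1a*, *Kdm6b* moved from rank 4 to rank 2 in the retina (20.5 ± 1.78 CPM per kb), where it overlapped *Tet3*, and *Kdm3a* moved from rank 6 to rank 3 in the cells (8.32 ± 0.364 CPM per kb), where it overlapped no neighbour.

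**Figure D3:**
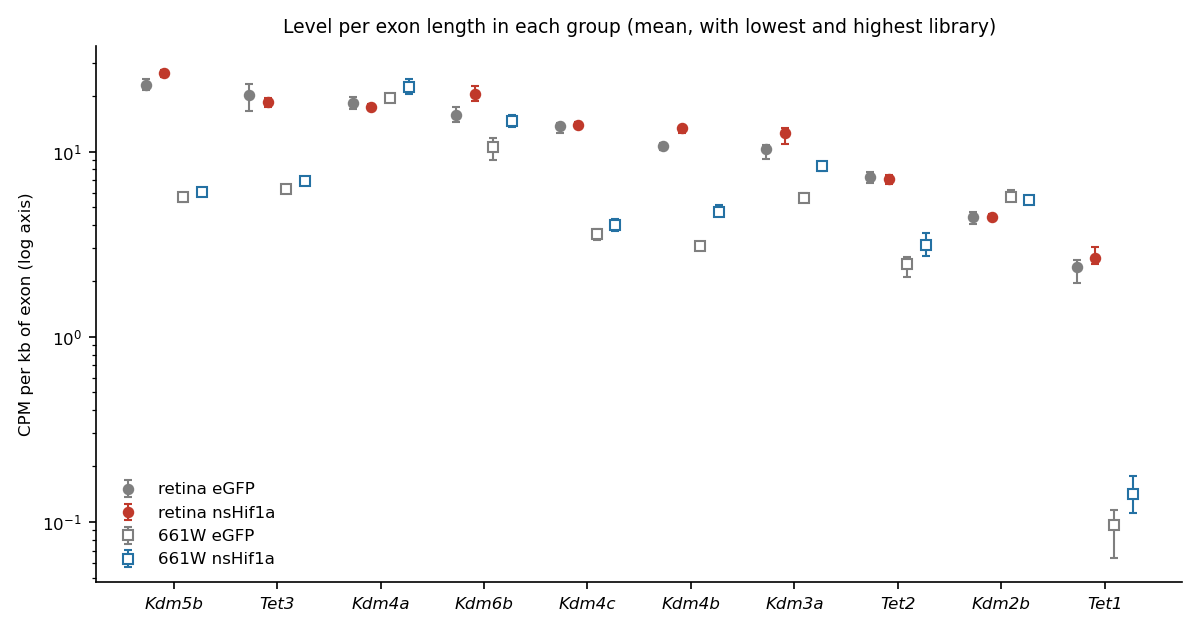
Level of each member in CPM per kilobase of exon on a log axis, for the 4 groups, ordered by the level in AAV::eGFP retinas. Points are group means and bars run from the lowest to the highest library. *Kdm4a* is the member with nearly the same level in retina and cells, and *Tet1* in the cells is far below all others.

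Relatives of the 10 genes were examined as lists. Of 13 other JmjC demethylases 11 were tested in the retina and 10 in the cells, and 1 was called in each, *Kdm2a*, the nearest relative of *Kdm2b*. In the retina *Kdm2a* had 147.9 ± 9.13 CPM in the controls and 177.8 ± 8.62 CPM with the transgene (SD, n = 5, log2FC 0.26, adjusted *p* = 0.012, or 0.16 with the rod marker mean as a covariate). In the cells it rose from 237 ± 6.27 to 271 ± 10.8 CPM (SD, n = 4, log2FC 0.19, adjusted *p* = 0.047), a call lost in 9 of 18 alternatives, among them the replicate block (adjusted *p* = 0.080), edgeR (0.058) and the omission of any eGFP library (0.066 to 0.074) or of *nsHif1a* library 1 (0.061) or 2 (0.057). *Kdm5c* and *Kdm6a* lie on the X chromosome, and *Kdm5d* and *Uty* on the Y chromosome. *Kdm5c* had 196.7 ± 33.9 and 244 ± 12.8 CPM in the retina (adjusted *p* = 0.055) and *Kdm6a* had 66.8 ± 19.5 and 89.3 ± 1.52 CPM (adjusted *p* = 0.067). With the *Xist* class as a covariate their log2FC values went from 0.34 to 0.06 and from 0.50 to 0.02. *Kdm5d* was at 0 CPM in every AAV::*nsHif1a* retina and reached 35.0 CPM in a control.

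Among 11 other proteins with a JmjC domain, *Jmjd6*, which hydroxylates lysines of splicing factors, rose in both experiments. It went from 42.2 ± 2.40 to 69.2 ± 6.77 CPM in the retina (log2FC 0.72, adjusted *p* = 1.9e-04), which is more than any of the 10 members there, and from 65.8 ± 3.32 to 90.7 ± 6.56 CPM in the cells (log2FC 0.46, adjusted *p* = 0.0065). *Jmjd6* was called in all 22 alternative fits of the retina and all 18 of the cells. *Jarid2*, a subunit of the Polycomb complex PRC2, had a log2FC of 0.17 in the retina (adjusted *p* = 0.030), a call kept in 11 of 22 alternatives. The call was lost without AAV::eGFP library 4 (0.076) or 5 (0.086) or AAV::*nsHif1a* library 1 (0.059) or 2 (0.10). With the *Xist* class as a covariate (0.13) and among the libraries with *Xist* alone (0.19) it was lost as well. *Hif1an*, the asparagine hydroxylase that limits HIF activity, had log2FC values of -0.03 in the retina and -0.03 in the cells. Of the 9 AlkB family demethylases of nucleic acids, *Alkbh5*, which acts on N6-methyladenosine in RNA, rose in both experiments. *Alkbh5* went from 205 ± 10.4 to 259 ± 23.6 CPM in the retina (log2FC 0.32, adjusted *p* = 0.0083, or 0.17 with the rod marker mean as a covariate) and from 210.0 ± 5.59 to 249.6 ± 3.04 CPM in the cells (log2FC 0.25, adjusted *p* = 0.012, or 0.056 with the replicate block).

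**Figure D4:**
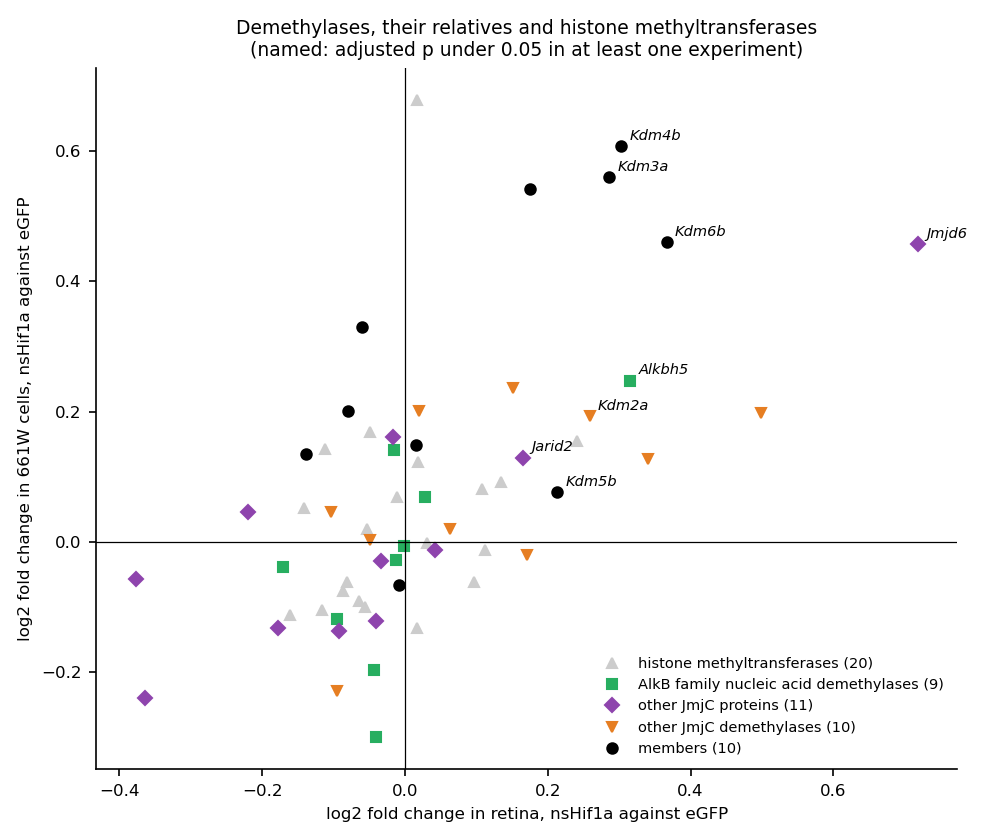
Log2 fold change in the retina (horizontal axis) and in 661W cells (vertical axis) for the 10 members, the other JmjC demethylases, the other JmjC proteins, the AlkB family and histone methyltransferases tested in both experiments, 1 point per gene. Names mark genes with an adjusted *p* under 0.05 in at least one experiment. *Kdm3a*, *Kdm4b* and *Kdm6b* lie to the upper right with *Jmjd6*, whereas no histone methyltransferase is named.

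The next lists hold enzymes with the opposite activity, enzymes of the metabolites, and partners. Of the 20 histone methyltransferases limma called 0 in the retina and 0 in the cells, edgeR called 0 and 0, and DESeq2 called 0 and 2. An unadjusted *p* under 0.05 was found for 6 and 2 of these 20, beside 4097 of all 18859 genes in the retina and 3304 of 15962 in the cells. The median log2FC of this list was -0.03 in the retina and 0.0093 in the cells. In the cells the groups did not overlap for 2 of the 20 that were higher with *nsHif1a*, beside 7.51% of all genes. They also did not overlap for 1 that was lower, for which no share over all genes was computed. *Setdb2*, 1 of the 2, had a log2FC of 0.68 in the cells (SE 0.17, adjusted *p* = 0.073), larger than that of any of the 10 members there. In the retina its log2FC was 0.02 (adjusted *p* = 0.96). Of the 14 enzymes of 2-oxoglutarate, succinate and fumarate, limma and edgeR called 0 in each experiment and DESeq2 called 0 and 1, with 3 and 4 at an unadjusted *p* under 0.05. The FAD-dependent demethylases *Kdm1a* and *Kdm1b*, which use no 2-oxoglutarate, were called by none of the 3 tools in either experiment, with 1 and 0 of these 2 at an unadjusted *p* under 0.05. Of 12 DNA methyltransferases and readers of 5-methylcytosine, *Cxxc5* rose in the retina (log2FC 0.26, adjusted *p* = 0.018), and limma, edgeR and DESeq2 called 0 in the cells, where 0 had an unadjusted *p* under 0.05. Of the 8 subunits of the KDM2B complex PRC1.1, *Bcor* rose in the retina (log2FC 0.24, adjusted *p* = 0.033), and the 3 tools called 0 in the cells, where 2 had an unadjusted *p* under 0.05. The calls of *Cxxc5* and *Bcor* were kept in 12 and 9 of 22 alternatives. With the *Xist* class as a covariate both were lost (adjusted *p* = 0.18 for *Cxxc5* and 0.17 for *Bcor*). Among the libraries with *Xist* alone the values were 0.27 and 0.20. *Cxxc5* was lost without AAV::eGFP library 4 (0.075) or 5 (0.080) or AAV::*nsHif1a* library 2 (0.054) or 3 (0.053), and *Bcor* without AAV::eGFP library 1 (0.0501), 3 (0.064) or 5 (0.093) or AAV::*nsHif1a* library 1 (0.066), 2 (0.11) or 5 (0.058).

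For the 3 members called in both experiments, the genes with the most similar pattern were sought over all 18 libraries, among 14122 genes tested in both, with log2 CPM centred on the mean of each experiment. *Kdm3a* was closest to *Pfkp*, a phosphofructokinase of glycolysis (Pearson's r = 0.97), to *Bnip3*, a mitophagy receptor and HIF target (0.96), and to *Ero1a*, an oxidase of the endoplasmic reticulum (0.94). *Kdm4b* was closest to *Slc16a3*, a lactate transporter (0.97), to *Ak4*, a mitochondrial adenylate kinase (0.97), and to *Bnip3* (0.96). *Kdm6b* was closest to *Vegfa*, the vascular endothelial growth factor (0.96), to *Lonp1*, a mitochondrial protease (0.95), and to *Pfkp* (0.91). Within the retina alone these 9 values lay between 0.85 and 0.96, and within the cells between 0.94 and 0.995. The libraries share the group difference, so these values describe how closely the profiles run and were not tested.

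**Figure D5:**
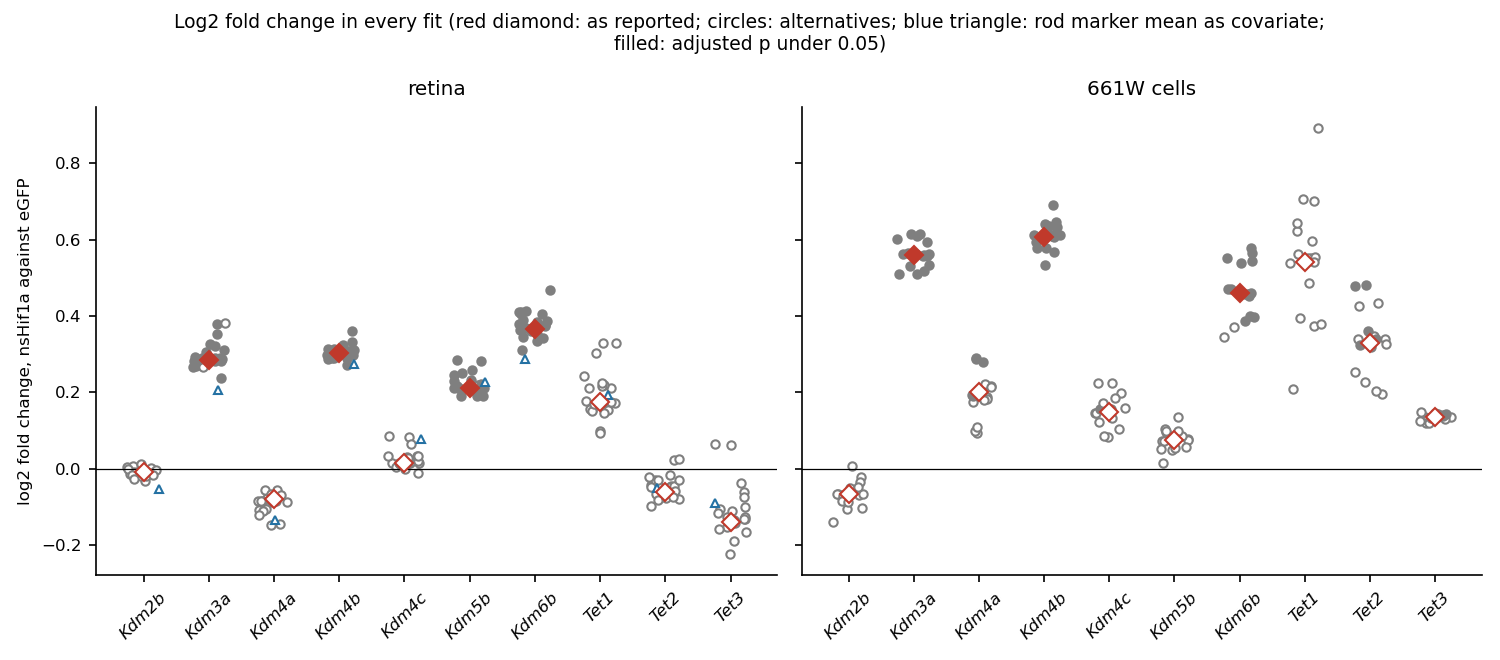
Log2 fold change of each member in the retina (left) and in 661W cells (right) in every fit. Red diamonds are the values reported above, circles the alternative settings and the omission of each library, the blue triangle the retinal fit with the rod marker mean as a covariate, and filled marks have an adjusted *p* under 0.05. *Kdm4b* stays between 0.27 and 0.36 in the retina and between 0.53 and 0.69 in the cells.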

How the data were processed

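The 10 members and the gene lists were chosen with earlier results of these data known. The authors made stranded mRNA libraries, aligned the reads with Rsubread (GRCm39) and used featureCounts, on the antisense strand, for counts per gene of the gencode M36 basic annotation. The deposited tables hold these raw counts, 1 table per experiment, without normalization.

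From the counts, low genes were removed by filterByExpr at a minimum count of 10, TMM factors were computed in edgeR 4.0.16, and voomWithQualityWeights values were fitted in limma 3.58.1 under R 4.3.3, per experiment, following the study's methods. The interaction and the control comparison used all 18 libraries. Every adjusted *p* is limma's with Benjamini-Hochberg adjustment over all genes tested unless another tool is named, and a gene "rose" or "fell" when it was under 0.05. DESeq2 was version 1.42.0. Log2 CPM values used a prior count of 2. The procedure was tested on simulated counts whose changes were larger than those of any member, without replicate sets or a difference in sex. That test does not cover changes as small as those of the members. At these depths 3 counts correspond to about 0.2 CPM, a limit that covers counting error only.

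Gene places and exon lengths came from gencode M39 on GRCm39, which held 78168 of the 78239 gene IDs. Named were all members, *Hif1a*, the called genes of each list (at most 5 per list and experiment) and the 3 genes most like a member called in both experiments. *Egln3*, *Hif1an*, *Kdm5c*, *Kdm6a*, *Kdm5d*, *Uty*, *Kdm1a*, *Kdm1b* and *Setdb2* were named after their values were seen. Samples were grouped by the titles in the labels. Same-numbered cell libraries deviated together (r from 0.23 to 0.27 across genes for all 4 pairs). Replicates 1 with 2 and 3 with 4 of the other group did so as closely (r from 0.25 to 0.29). These values mark the 2 sets and do not single out pairs by number, so the block by number is only an alternative fit. For same-numbered libraries of the retina r ranged from -0.15 to 0.14.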

Additional observations from a re-analysis of the deposited data

Results flagged for a closer look

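*Tet1* in AAV::*nsHif1a* library 2 stood apart from the other 4 libraries of its group, with 42.52 CPM against 34.5 to 36.6 CPM. It was the only one of 40 groups of values (10 members in 4 groups of libraries) in which the highest or lowest library was this far from the rest, and chance alone flags about 1 in 20 such groups. Without this library the retinal log2FC of *Tet1* stayed under the threshold, as it did in all 10 fits that left out 1 library.

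The effect of *nsHif1a* on *Kdm4b* differed between retina and 661W cells by a log2 difference of -0.3111, from 0.30 in the retina to 0.61 in the cells (limma's interaction term, adjusted *p* = 0.026). The call was kept in all 18 fits that left out 1 library but in only 3 of 6 other alternatives. It was lost with the replicate block (adjusted *p* = 0.074), with the *Xist* class as a covariate and without a filter on low counts. In both experiments every *nsHif1a* library lay above every control, so the difference is one of size and not of direction.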

How the results depend on the processing

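The numbers of members called were 4 in the retina, 3 in the cells, 1 for the difference of effects and 9 for the control comparison, and no called member changed direction in any alternative. In the retina the number fell to 0 with the rod marker mean as a covariate (added after the data were seen) and to 0 with a log2FC above 0.5 as well, and was 3 to 4 with each library left out. In the cells it was 7 with the replicate set as a covariate, 6 within replicates 1 and 2, and 2 to 5 with each library left out. For the difference of effects it was 0 without a filter on low counts, 0 with the replicate block, 0 with the *Xist* class as a covariate (5 members had an unadjusted *p* under 0.05 in each of these 3 fits, as in the fit reported above, where 3534 of all 20999 genes did), and 1 to 4 with each library left out. The control comparison gave 9 throughout. In the retina the replicate numbers do not mark a pairing, and with them as a block 3 members were called in place of 4, since *Kdm5b* had an adjusted *p* of 0.069. The block changed no other call of a member beside those of *Kdm4b* and *Kdm5b* given here and above.

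The number of all genes called also moved. In the retina it was 1091, with 375 under the replicate block, 709 without a filter, 239 to 560 with the other covariates or the *Xist* libraries alone, 115 with the rod marker mean and 576 to 1353 with each library left out (576 and 595 without AAV::eGFP library 4 or 5, 627 and 659 without AAV::*nsHif1a* library 2 or 3). In the cells it was 397, with 124 under the block, 1009 with DESeq2, 655 with a minimum count of 50, 1027 to 5773 with the replicate sets, 124 without eGFP library 1, 130 without eGFP library 2, and 5043 without *nsHif1a* library 3 or 4. For the difference it was 489, with 282 without a filter, 186 under the block, 227 with the *Xist* class and 248 to 3113 with each library left out. The causes were not tested. Depth limited *Tet1* in the cells, with 13 to 45 counts per library.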
